A study of Homo sapiens with 12 samples.

Results

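The MYC, MAX and MXD network is a family of transcription factors that bind DNA in pairs built around one shared partner, MAX. It was followed here through the mRNA of 10 genes, taken by symbol from the 23615 gene symbols of the deposited expression tables: MYC, MYCN, MYCL1 (now named MYCL), MAX, MXD1, MXD3, MXD4, MXI1, MNT and MGA. All 10 were listed. Levels are in FPKM, fragments scaled to transcript length and to the mapped fragments of a library, and 9 genes averaged 1 FPKM or more across all 12 libraries. MYCN did not reach that level and was not tested.

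The study asked how blocking the decapping enzyme Dcp2 alters the decay of mRNAs. Poly(A) RNA was sequenced from HEK293T, a human embryonic kidney epithelial line with stable expression of SV40 T antigen. Cells had 18 h with 2 µM of the macrocyclic Dcp2 inhibitor CP25 or with an equal volume of its vehicle, a peptide storage buffer, and then actinomycin D at 5 µg/mL to stop transcription. There were 4 groups of 3 libraries: CP25 with 2 h of actinomycin D, vehicle with 2 h, CP25 with 0 h and vehicle with 0 h. Replicates are numbered in the labels without a statement that each came from its own culture; p-values therefore speak only of variation among these libraries, part or all of which may be technical.

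As background, MYC, MYCN and MYCL pair with MAX, bind the E-box motif CACGTG and activate transcription. The MXD proteins, MXI1 (also called MXD2) and MNT pair with MAX at the same motif and recruit SIN3 and histone deacetylases, which represses transcription, and MGA joins MAX in a Polycomb complex. The mRNA of MYC is a textbook example of a short-lived transcript. Decapping by Dcp2 removes the cap of an mRNA, after which the body can be degraded from that end.

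Sequences bear on this design in 2 ways. The first is the network's own binding motif in the promoters of its genes, searched as CACGTG, which is the same on both strands, in RefSeq windows of GRCh38.p14 that run from 250 bases before to 50 after a gene start. MYC was left out of this search, and of the 9 other network genes 2 held the motif, MNT and MXD4. Counted by window, since some genes have several, these are 2 of 14 windows (14.3%), where 7.26% of all 35116 promoter windows hold it. The sites are shown because these genes encode partners that bind the same motif, and capitals mark it. The MNT window lies at chr17:2401236-2401265 and the MXD4 window at chr4:2262330-2262359, both on the minus strand.

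MNT promoter: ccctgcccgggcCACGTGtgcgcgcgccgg
MXD4 promoter: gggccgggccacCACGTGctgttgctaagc

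The second is the AU-rich pentamer ATTTA, in DNA letters, the core of elements known from short-lived mRNAs, counted on the sense strand, overlaps included, in the longest annotated 3′ UTR of each gene in GENCODE 29. MYC held 4 pentamers in 476 bases, or 8.4 per kilobase, above 98.6% of the 10825 genes of at least 1 FPKM with a 3′ UTR, where the median was 1.74 per kilobase. MXD1 held 10 in 4661 bases, or 2.15 per kilobase, above 57.5% of those genes. MGA held 7 in 5801 bases, or 1.21 per kilobase, above 39.5%. MXI1 held 4, MAX 3, MYCL1 2 and MXD3 1, whereas MNT and MXD4 held 0. The longer form TATTTAT, which holds the pentamer, occurred once each in MAX, MXD1, MXD3 and MGA and in 36.5% of all those genes. It did not occur in the MYC UTR. The 4 sites are shown with the pentamer in capitals, since they belong to genes that moved in different ways over the 2 h described next.

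MXD1: tctataaatactATTTAttcattttatata
MGA: gtctgtaaagatATTTAtatttttgtatag
MAX: tgatgttttgatATTTAtttcctgctactt
MXD3: aattcaacaagtATTTAttgagtgtctatt

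These sites lie at bases 1223 to 1252 (MXD1), 1094 to 1123 (MGA), 2144 to 2173 (MAX) and 172 to 201 (MXD3) of the UTR. A match describes these letters and is neither a shown binding site nor a cause, and the UTR in use in these cells was not measured.

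By estimate the 2 h libraries held 22 to 29.3 × 10⁶ fragments and the 0 h libraries 13.2 to 22.1 × 10⁶. Libraries of a group correlated at 0.971 to 0.989 across genes on the log2 scale. Of 9 markers of kidney epithelium and HEK293 cells, 5 reached 1 FPKM in some library (KRT18 up to 40.9 FPKM) while PAX8 and KRT19 did not exceed 0.00959 FPKM, and all 3 neural markers described for HEK293 did. Among markers of other cells, 2 of 5 for fibroblasts (up to 3.83 FPKM), 1 of 6 for haematopoietic cells (CD68, up to 1.14 FPKM) and 0 of 3 for endothelium reached it. The 2 h and 0 h values come from separately deposited tables, so levels at the 2 times are compared as descriptions, and time, table and depth cannot be told apart. FPKM is a share of a library, so fewer cells, less RNA per cell and a change of the other transcripts cannot be told apart from each other either.

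MYC, the main activator of the network, had the highest level of the 10 genes before the block and stood far below that afterwards. It had 7.29, 3.56 and 8.79 FPKM in the CP25 libraries at 2 h and 5.71, 3.92 and 9.52 FPKM in the vehicle libraries at 2 h. At 0 h it had 55.3, 79.1 and 61.5 FPKM with CP25 and 53.2, 74.5 and 67.2 FPKM with vehicle. Every 2 h library lay far below every 0 h library, and CP25 and vehicle libraries overlapped at both times. The mean at 2 h was 10.0% of that at 0 h with CP25 and 9.83% with vehicle. Among the 12183 genes that averaged 1 FPKM or more, ordered by the log2 ratio of FPKM + 1 at 2 h over 0 h, MYC ranked 16 from the lowest with CP25 and 12 with vehicle. The ratio was -3.19 ± 0.37 with CP25 and -3.22 ± 0.35 with vehicle (SE, n = 3 libraries per time). At 2 h MYC stood for roughly 220 to 508 fragments in a CP25 library and 272 to 495 in a vehicle library.

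The other activators were scarce. MYCL1 had 1.70, 1.07 and 1.43 FPKM with CP25 and 1.35, 1.16 and 1.72 FPKM with vehicle at 2 h. Its 0 h libraries held 2.30, 3.15 and 2.61 FPKM with CP25 and 2.06, 3.16 and 2.75 FPKM with vehicle. All 2 h libraries were below all 0 h libraries of both treatments, and 52.1% of the level was left with CP25 and 53.1% with vehicle. MYCN was listed at 0 in all 6 libraries at 2 h. At 0 h it had 0, 0.0343 and 0.0182 FPKM with CP25 and 0, 0.0787 and 0 FPKM with vehicle, which stands for about 4 fragments at most. Of the summed FPKM of the 3 activators, MYC made up 81.3% ± 4.55 with CP25 and 80.9% ± 3.76 with vehicle at 2 h, and 96.0% ± 0.11 with CP25 and 96.1% ± 0.22 with vehicle at 0 h (SD, n = 3 each).

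**Figure D1:**
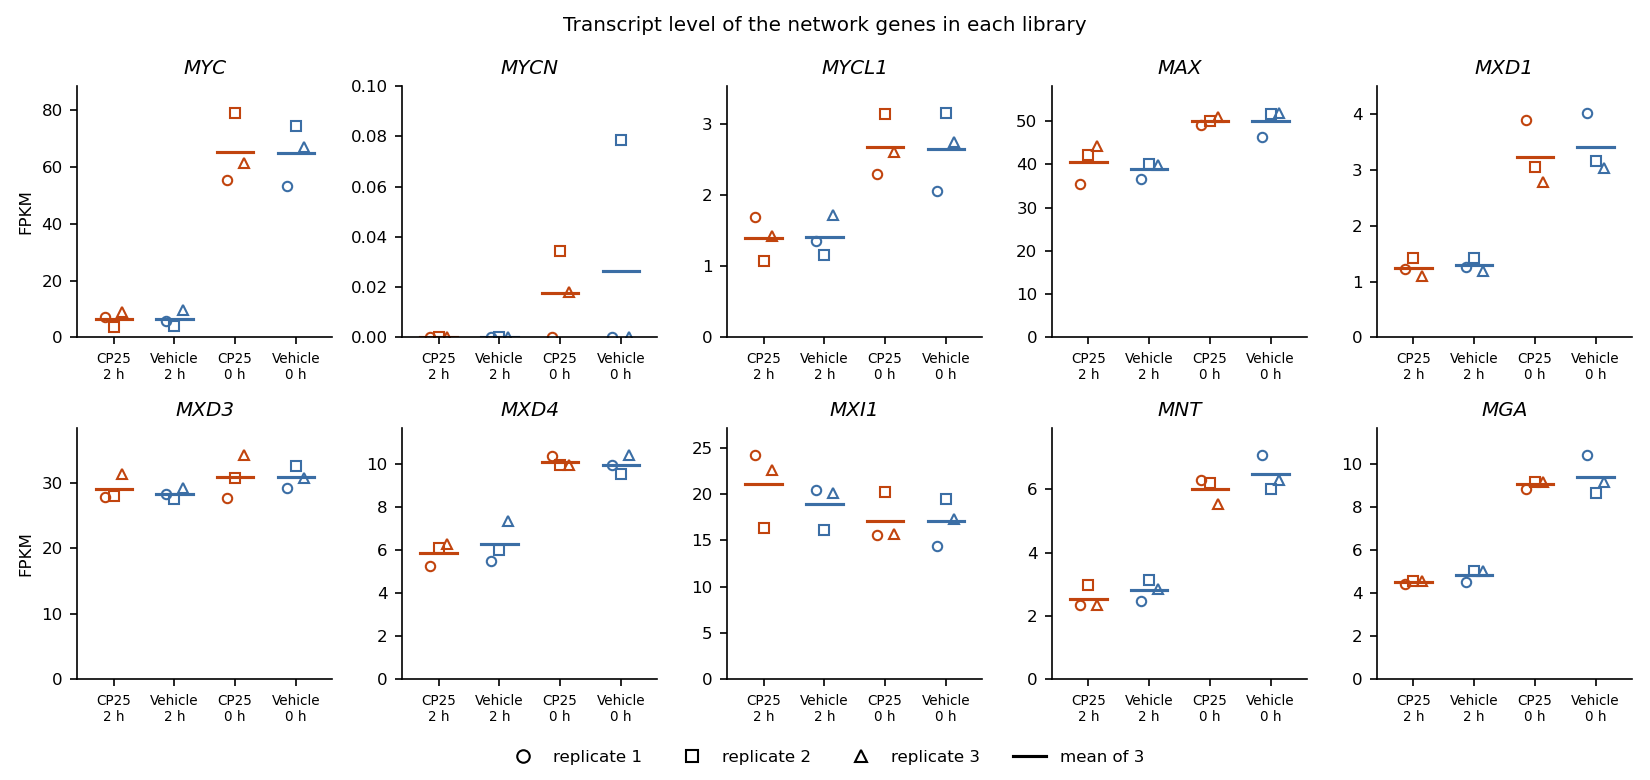
FPKM of each network gene (vertical axes, linear, starting at 0, 1 scale per gene) in the 12 libraries, by group along the horizontal axis; the marker shape gives the replicate number and the bar is the mean of 3. The MYC libraries at 2 h lie between 3.56 and 9.52 FPKM, those at 0 h between 53.2 and 79.1 FPKM, and in no panel do CP25 and vehicle libraries of one time separate.

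MAX, the shared partner of the network, had 35.5, 42.3 and 44.2 FPKM with CP25 and 36.6, 40.2 and 39.8 FPKM with vehicle at 2 h. It had 49.1, 50.1 and 50.9 FPKM with CP25 and 46.3, 51.6 and 51.9 FPKM with vehicle at 0 h. The 2 h libraries lay below the 0 h libraries by a small margin, with 81.3% left with CP25 and 77.8% with vehicle. On the log2(FPKM + 1) scale the ratio of 2 h to 0 h was -0.30 (CP25) and -0.35 (vehicle) for MAX. The median of the ratios of all genes was higher, at -0.16 (CP25) and -0.18 (vehicle). Against a different reference, the median level of all genes in each library, MAX differed by 0.0085 between the times (exact permutation test of the time label within treatment, two-sided, p = 0.88). It serves below as the yardstick for the others.

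The MXD genes, whose proteins replace MYC on MAX as cells leave the cycle or differentiate, split into several patterns. MXD1 was low, at 1.22, 1.43 and 1.10 FPKM with CP25 and 1.26, 1.43 and 1.18 FPKM with vehicle at 2 h. Its 0 h libraries held 3.90, 3.05 and 2.78 FPKM with CP25 and 4.02, 3.16 and 3.03 FPKM with vehicle. The 2 times did not overlap, and 38.6% was left with CP25 and 37.9% with vehicle, the smallest share after MYC among the 9 genes.

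MXD4 had 5.27, 6.12 and 6.29 FPKM with CP25 and 5.49, 6.004 and 7.37 FPKM with vehicle at 2 h. At 0 h it had 10.4, 9.99 and 9.97 FPKM with CP25 and 9.98, 9.55 and 10.4 FPKM with vehicle. Again no 2 h library reached a 0 h library, and 58.2% was left with CP25 and 62.9% with vehicle.

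MXD3, which is expressed mainly in dividing cells, stood close to its 0 h level. It had 27.8, 28.0 and 31.4 FPKM with CP25 and 28.3, 27.5 and 29.2 FPKM with vehicle at 2 h. It had 27.6, 30.7 and 34.2 FPKM with CP25 and 29.3, 32.5 and 30.7 FPKM with vehicle at 0 h. The CP25 libraries of the 2 times overlapped, the vehicle libraries did not, and 94.2% was left with CP25 and 91.9% with vehicle. Its log2 ratio of -0.08 (CP25) and -0.12 (vehicle) turned to 0.25 (CP25) and 0.23 (vehicle) once libraries were centred on their median, so its direction depends on that scaling. With CP25 the ratio was -0.0054 without replicate 3 at 0 h and -0.16 without replicate 1 at 0 h. In GENCODE 29, 22.2% of its exon bases are shared with PRELID1 on the opposite strand, which averaged 148 FPKM over the 12 libraries. Whether fragments were counted by strand is not given in the sources used here, so MXD3 levels may include fragments of PRELID1.

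MXI1 was the only network gene with a higher mean at 2 h than at 0 h in both treatments. It had 24.2, 16.3 and 22.6 FPKM with CP25 and 20.5, 16.1 and 20.1 FPKM with vehicle at 2 h. At 0 h it had 15.6, 20.2 and 15.7 FPKM with CP25 and 14.5, 19.5 and 17.3 FPKM with vehicle. The times overlapped in both treatments, because replicate 2 was the lowest library at 2 h and the highest at 0 h. The mean at 2 h was 122.8% of that at 0 h with CP25 and 111% with vehicle. Single libraries moved the log2 ratio by over 1.5 times. The ratio of 0.27 with CP25 was 0.17 without replicate 1 at 2 h and 0.44 without replicate 2 at 2 h. The ratio of 0.14 with vehicle was 0.08, 0.25 and 0.09 without replicates 1, 2 and 3 at 2 h, and 0.03 and 0.24 without replicates 1 and 2 at 0 h.

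MNT, the broadly expressed repressor that pairs with MAX throughout the cell cycle, had 2.33, 2.98 and 2.33 FPKM with CP25 and 2.46, 3.14 and 2.86 FPKM with vehicle at 2 h. It had 6.27, 6.20 and 5.54 FPKM with CP25 and 7.08, 6.02 and 6.30 FPKM with vehicle at 0 h. The times were well apart, with 42.4% left with CP25 and 43.6% with vehicle. MNT shares 21.3% of its exon bases with an antisense transcript that the tables do not list by symbol.

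MGA, the largest protein of the network and a subunit of the Polycomb complex PRC1.6, had 4.42, 4.58 and 4.58 FPKM with CP25 and 4.51, 5.03 and 5.06 FPKM with vehicle at 2 h. It had 8.87, 9.17 and 9.19 FPKM with CP25 and 10.4, 8.69 and 9.18 FPKM with vehicle at 0 h. No libraries of the 2 times overlapped, and 49.9% was left with CP25 and 51.6% with vehicle.

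In all, 7 of the 9 genes had every 2 h library below every 0 h library in both treatments, where 39.5% of all 12183 genes did. None of the 9 had every 2 h library above, where 11.6% of all genes did. On the log2(FPKM + 1) scale MYC alone passed -1, that is 1 of 9 genes in each treatment, where 7.22% of all genes did with CP25 and 7.26% with vehicle. That count depends on the pseudocount of 1, which shrinks the ratio of low genes. With no pseudocount MXD1 at -1.37 (CP25) and -1.40 (vehicle) and MNT at -1.24 (CP25) and -1.20 (vehicle) joined MYC, so 3 genes passed -1 in both treatments. MGA, with 49.9% left, passed narrowly with CP25 alone. The shares of all genes given here hold for the pseudocount of 1 only, so the 3 genes cannot be set against them.

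**Figure D2:**
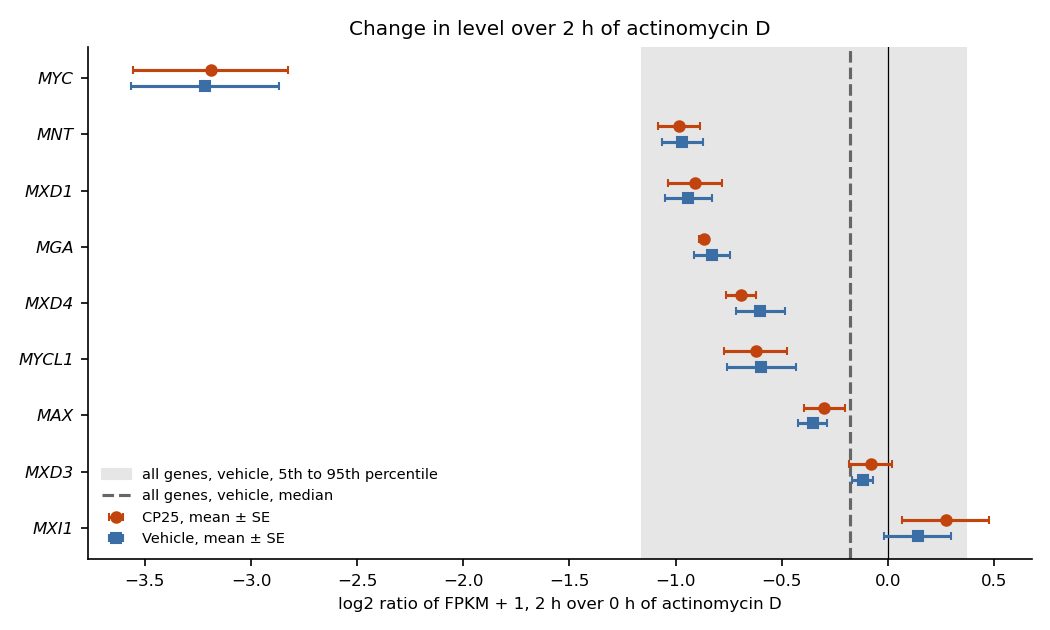
Log2 ratio of FPKM + 1 at 2 h over 0 h (horizontal axis) for the 9 network genes above 1 FPKM, as mean ± SE of 3 libraries per time, CP25 above vehicle in each row; grey marks the 5th to 95th percentile of all genes with vehicle and the dashed line their median of -0.177. MYC at -3.19 with CP25 and -3.22 with vehicle lies outside the grey range, whose lower end is -1.16, and MXI1 lies right of 0.

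Which partners changed their standing relative to MAX over the 2 h was tested on the ratio to MAX within each library, for the 8 other genes of at least 1 FPKM. A ratio of FPKM cancels a scale factor of its table; with the pseudocount of 1 it does so only in part, least for low genes, so the value with no pseudocount is given beside each. In an exact two-sided permutation of the time label within each treatment, with 400 labellings and a smallest possible p of 0.005, 7 of the 8 passed at 0.05 after Benjamini-Hochberg adjustment over all genes, where 63.3% of 12182 genes passed the same test. MYC fell by 2.88 on the log2 scale relative to MAX (-3.08 with no pseudocount), with all 6 libraries at 2 h below every 0 h library of their treatment (adjusted p = 0.0102, exact test). MNT fell by 0.65 (-0.89 with no pseudocount), MXD1 by 0.60 (-1.05) and MGA by 0.52 (-0.64), each with 6 of 6 libraries below and the same adjusted exact p of 0.0102. With no pseudocount MXD1 thus came before MNT.

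MXD4 fell by 0.32 relative to MAX (-0.40 with no pseudocount), with 5 of 6 libraries below. MXD3 rose by 0.23 (0.23) and MXI1 by 0.53 (0.55), with 5 of 6 libraries above (adjusted p = 0.0183 in the exact test for all 3 genes). For MYCL1 the change was -0.28 with 4 of 6 libraries below and did not pass (p = 0.055, adjusted p = 0.081, exact test). With no pseudocount it was -0.60 (unadjusted p = 0.01, exact permutation test). Its unadjusted p was also under 0.05 when one of 3 libraries was left out: CP25 replicate 1 at 2 h (-0.37), vehicle replicate 3 at 2 h (-0.32) or vehicle replicate 1 at 0 h (-0.32). For MXI1 the unadjusted p was not under 0.05 when libraries of the same number were taken as pairs across time. It was 0.0625 in an exact sign-flip permutation test, whose smallest possible p is 0.03125. This unadjusted p is not the measure by which MXI1 was called, and pairing by number across time was not checked.

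The changes altered the make-up of the transcripts that encode partners of MAX. MYC made up 8.86% ± 2.94 of the summed FPKM of all partners with CP25 at 2 h and 8.89% ± 3.18 with vehicle at 2 h. It made up 45.0% ± 3.47 with CP25 and 44.6% ± 3.45 with vehicle at 0 h (SD, n = 3 each). The sum of MXD1, MXD3, MXD4 and MXI1 moved little, at 57.3 ± 4.90 FPKM with CP25 and 54.8 ± 3.53 FPKM with vehicle at 2 h, against 61.4 ± 3.43 FPKM with CP25 and 61.3 ± 3.49 FPKM with vehicle at 0 h. The ratio of MYC to that sum was 0.112 ± 0.039 with CP25 and 0.115 ± 0.045 with vehicle at 2 h, and 1.06 ± 0.15 with CP25 and 1.05 ± 0.12 with vehicle at 0 h. Both the MXD sum and the sum of all partners hold MXD3, whose level may include fragments of PRELID1.

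MXD3 and MXI1 together made up most of the MXD sum, 87.4% with CP25 and 86.2% with vehicle at 2 h, and 78.1% in both treatments at 0 h. All partners together amounted to 1.79 ± 0.29 times MAX with CP25 and 1.81 ± 0.19 times with vehicle at 2 h. At 0 h they amounted to 2.89 ± 0.30 times MAX with CP25 and 2.90 ± 0.13 times with vehicle. These are ratios of mRNA levels per transcript length, and protein was not measured. The limit named for MXD3 applies to each of them.

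**Figure D3:**
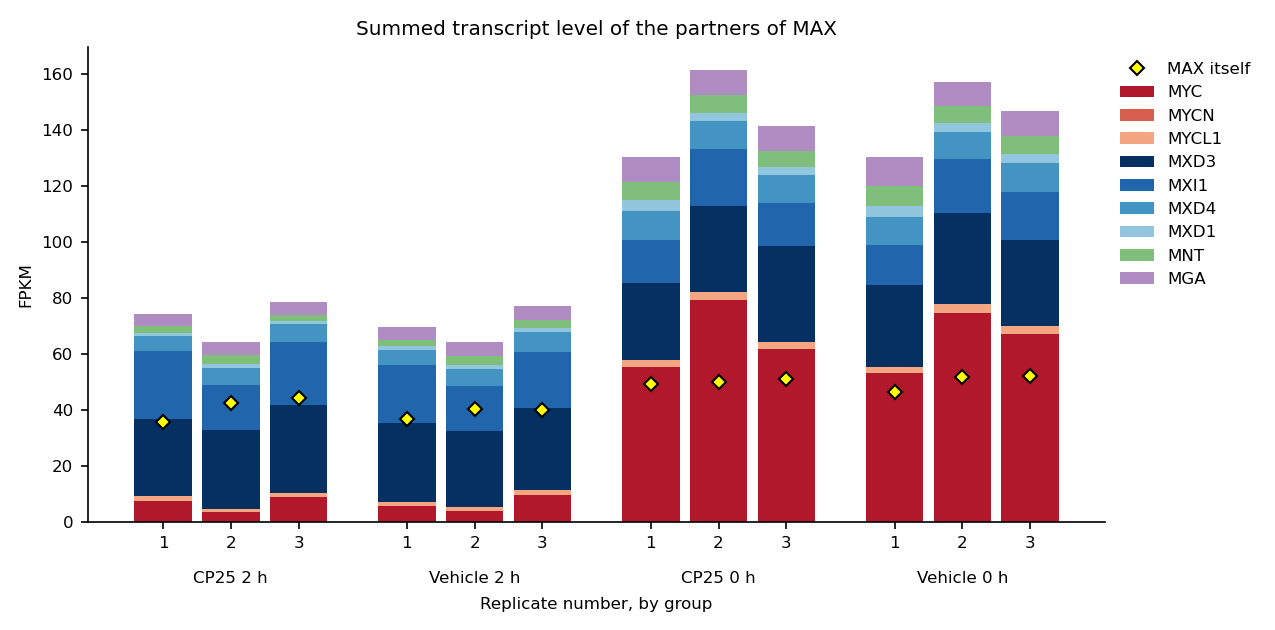
Stacked FPKM (vertical axis, from 0) of the 9 possible partners of MAX in each library, grouped by treatment and time, with MAX itself as a diamond. The MYC share of the stack lies between 5.56% and 12.4% in the 6 libraries at 2 h and between 40.8% and 48.9% in the 6 libraries at 0 h. The MXD3 part may include fragments of PRELID1.

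The order of levels changed accordingly. At 2 h it ran MAX, MXD3, MXI1, MYC, MXD4, MGA, MNT, MYCL1, MXD1 and MYCN in both treatments. At 0 h it ran MYC, MAX, MXD3, MXI1, MXD4, MGA, MNT, MXD1, MYCL1 and MYCN in both treatments. The place of MXD3 in both orders carries the limit named for it. Neighbours whose libraries overlapped were MYC and MXD4, and MYCL1 and MXD1, with both treatments at 2 h. At 0 h they were MXD1 and MYCL1 with both treatments, and MXD4 and MGA with vehicle. MYC lay above MAX in all 6 libraries at 0 h and below it in all 6 at 2 h.

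The design's main question is whether CP25 altered these mRNAs. No network gene passed the test between CP25 and vehicle at either time, and neither did the difference between the times. Calls were made with limma on log2(FPKM + 1) of the whole table, with Benjamini-Hochberg adjustment at 0.05. At 2 h it called 0 of the 9 network genes, where 0.00851% of 11745 genes were called, that is 1 gene, SNORD76. At 0 h it called 0 of 9, where 0% of 12365 genes were called, and for the difference of the CP25 effects, 2 h minus 0 h, 0 of 9, where 0% of 12183 genes were called.

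At an unadjusted limma p under 0.05 stood 87 of 11745 genes at 2 h, 88 of 12365 at 0 h and 153 of 12183 for the difference. None of the 9 network genes was among them. With so small a share of all genes, that would hold for most sets of 9 genes and says little about these. In 0 of the 9 genes did CP25 and vehicle libraries separate fully, where 4.21% of all genes did at 2 h and 4.08% at 0 h.

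For MYC, the CP25 change was 0.03 (95% confidence interval -0.77 to 0.83) on the log2(FPKM + 1) scale at 2 h and 0.01 (-0.38 to 0.39) at 0 h. The difference of the 2 effects was 0.03 (-0.90 to 0.95; limma adjusted p = 1), that is a fold between 0.536 and 1.93. With libraries taken as unmatched, changes within that range were not told apart from no change. The interval is not a limit of detection, and a decay rate was not measured. With the replicate number as a term the interval of the difference was -0.25 to 0.30, that is a fold between 0.844 and 1.23.

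At each time, MYC ordered the replicate numbers in the same way with CP25 and with vehicle. At 2 h, replicate 2 was lowest and replicate 3 highest with CP25 and with vehicle, a spread of 2.14-fold in FPKM + 1 between numbers, and 95.6% of the variance within groups lay between numbers. At 0 h, replicate 1 was lowest and replicate 2 highest in both treatments, with a spread of 1.41-fold and 95% of the variance between numbers. MXI1 also kept the same order in both treatments at each time. Its share was 95.1% of the variance at 2 h, where replicate 2 was lowest, and 90.7% at 0 h, where replicate 2 was highest. MXD1 ran the other way, with replicate 2 highest at 2 h and replicate 1 highest at 0 h. Among the tested network genes the share between numbers ran from 73.3% (MYCL1) to 97.6% (MXD1) at 2 h. At 0 h it ran from 31.5% (MGA) to 99.2% (MXD1), with MXD4 at 47.6%. Part of such a share arises by chance with so few libraries. Neither a chance level nor the share over all genes is given here. By the pairing rule described below, the numbers do not pair the libraries at 0 h. What the number stands for is not given in the sources used here.

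Among the repressors, the CP25 change at 2 h ran from -0.11 for MNT to 0.14 for MXI1 on the log2(FPKM + 1) scale. MXI1 was higher with CP25 in 3 of 3 same-numbered pairs at 2 h, by 1.10-fold (95% interval 0.856 to 1.42; limma adjusted p = 1). With the replicate number as a term its log2 interval was 0.02 to 0.26, and it did not pass adjustment over all genes (limma adjusted p = 0.716). MNT, MGA and MXD1 were lower with CP25 in 3 of 3 pairs at 2 h, at 0.928-fold (0.774 to 1.11), 0.943-fold (0.834 to 1.07) and 0.982-fold (0.832 to 1.16), and none passed the limma test. Agreement of 3 of 3 pairs arises readily by chance, and its share over all genes is not given here. MAX, at 1.04-fold (0.895 to 1.21), and MXD3, at 1.02-fold (0.911 to 1.15), were higher with CP25 in 2 of 3 pairs. MXD4, at 0.949-fold (0.790 to 1.14), and MYCL1, at 0.994-fold (0.796 to 1.24), were higher in 1 of 3. These are folds of FPKM + 1, which narrows the intervals of low genes. With a pseudocount of 0.1 the log2 interval was -0.47 to 0.38 for MXD1, against -0.27 to 0.21 with 1. For MYCL1 it was -0.55 to 0.51, against -0.33 to 0.31 with 1.

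At 0 h, after 18 h of CP25 alone, the changes of the 9 genes ran from 0.939-fold for MNT (95% interval 0.823 to 1.07) up to MXD4 (0.921 to 1.11) and MYCL1 (0.804 to 1.27), whose log2 changes were both 0.02. The authors' deposited table gave p = 0.803 for MYC at 2 h and 0.945 at 0 h. In the same table the smallest p of the 9 genes at 2 h was 0.191, for MXI1.

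**Figure D4:**
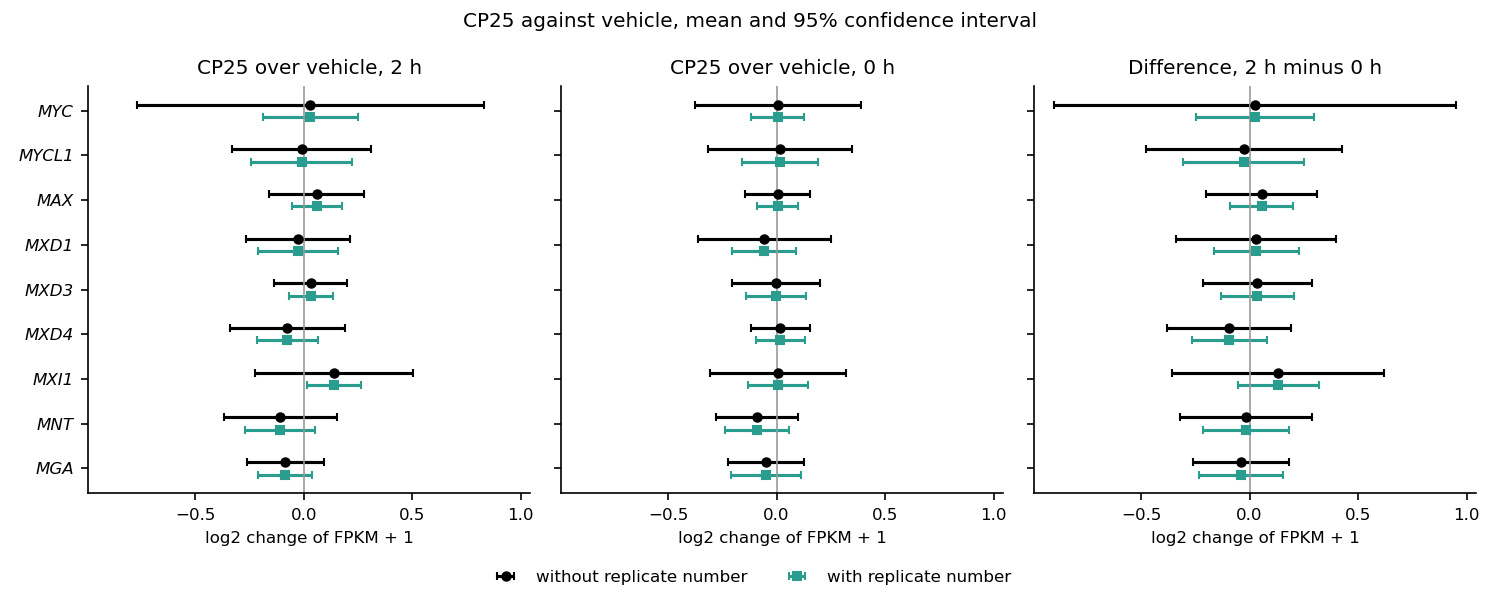
CP25 change on the log2(FPKM + 1) scale (horizontal axis) at 2 h, at 0 h and as the difference of both, with 95% confidence intervals from limma, without the replicate number (circles) and with it (squares). The intervals without the number all cross 0, and in each of the 3 panels that of MYC is the widest, -0.77 to 0.83 at 2 h and -0.90 to 0.95 for the difference; with the number, MXI1 at 2 h is the only one that does not cross 0.

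By the log2 ratios of 2 h to 0 h in both treatments, the genes most like MYC among 8457 genes averaging 5 FPKM or more were JUN, ZNF503, BAMBI, ZNF703 and NFKBIA. Likeness is the Euclidean distance over the 2 ratios, and it ran from 0.087 for JUN to 0.40 for NFKBIA. JUN, a subunit of the AP-1 factor, had 9.11% left with CP25 and 10.1% with vehicle. For NFKBIA, the inhibitor of NF-κB, it was 4.64% with CP25 and 6.51% with vehicle, which sits beside MYC on this scale because FPKM + 1 shrinks its low level of 0.562 FPKM with CP25 and 0.745 FPKM with vehicle at 2 h. The zinc finger genes ZNF503 (8.52% with CP25 and 8.37% with vehicle) and ZNF703 (7.20% with CP25 and 8.17% with vehicle) lay close by, as did BAMBI, a decoy receptor of TGF-β signalling (4.76% with CP25 and 3.76% with vehicle). BAMBI was lower still than NFKBIA at 2 h, at 0.51 FPKM with CP25 and 0.411 FPKM with vehicle, so the same shrinkage holds for it.

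The genes around the network were read as 8 lists, chosen with earlier results of these data known. In none of the 3 CP25 comparisons did limma call a gene of any list. A gene named as lowest or highest in a list was ranked by the percent left with vehicle among genes of at least 5 FPKM at 0 h, unless another treatment is named. The following medians are log2 ratios of FPKM + 1 at 2 h over 0 h, to be read against -0.16 with CP25 and -0.18 with vehicle over all genes, of which 7.22% passed -1 with CP25 and 7.26% with vehicle.

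The MLX arm holds MLX, which takes the place of MAX for another set of partners, and its partners MLXIP and MLXIPL. None of the 3 passed -1. MLX had 70.3% left with CP25 and 68.5% with vehicle, and MLXIP 59.6% with CP25 and 61.6% with vehicle, both below MAX, which had 81.3% with CP25 and 77.8% with vehicle.

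Cofactors through which MYC activates transcription had medians of -0.32 with CP25 and -0.34 with vehicle over 20 genes, and 3 passed -1 in each treatment. EP300, a histone acetyltransferase, was lowest, with 38.0% left with CP25 and 33.9% with vehicle. Its paralogue CREBBP (38.7% with CP25 and 34.1% with vehicle) and the cyclin CCNT1 of the elongation kinase P-TEFb (40.2% with CP25 and 39.5% with vehicle) were the others, named after their values were seen. RUVBL1, an ATPase of the TIP60 complex, was highest at 125% with CP25 and 126% with vehicle.

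The SIN3 and histone deacetylase corepressor of the MXD proteins and MNT had medians of -0.17 with CP25 and -0.09 with vehicle over 17 genes. ARID4B (34.8% left with CP25 and 34.4% with vehicle) and ING1 (21.7% with CP25 and 23.1% with vehicle, named after its values were seen) passed -1. RBBP7, a histone-binding subunit, was highest with vehicle, at 126% with CP25 and 131% with vehicle; its paralogue RBBP4, named after its values were seen, was highest with CP25, at 130% in both treatments. Of the 12 genes of the PRC1.6 complex that holds MGA, 0 passed -1 and the medians were -0.14 with CP25 and -0.15 with vehicle. Its DNA-binding subunit E2F6 had 56.9% left with CP25 and 56.5% with vehicle, beside MGA with 49.9% with CP25 and 51.6% with vehicle, and the reader subunit CBX3 had 126% with CP25 and 130% with vehicle.

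Genes for the turnover of MYC protein had medians of -0.29 with CP25 and -0.36 with vehicle over 18 measured genes, and 5 passed -1 with CP25 and 4 with vehicle. TRIM32, a ubiquitin ligase, was lowest, with 26.1% left with CP25 and 30.1% with vehicle. FBXW7, the ubiquitin ligase subunit that recognises phosphorylated MYC (43.0% with CP25 and 43.8% with vehicle), and the deubiquitinases USP36 (44.8% with CP25 and 46.3% with vehicle) and USP37 (44.8% with CP25 and 40.8% with vehicle) passed in both treatments, and the scaffold AXIN1 (46.8% with CP25 and 53.1% with vehicle) passed with CP25 alone. These 4 were named after their values were seen. SET, an inhibitor of the phosphatase PP2A, was highest at 139% with CP25 and 140% with vehicle.

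Proteins that bind the MYC mRNA had medians of 0.05 with CP25 and 0.01 with vehicle over 20 genes, and 2 passed -1. Both encode zinc finger proteins that bind AU-rich elements and promote decay: ZFP36L2, with 16.3% left with CP25 and 15.9% with vehicle, and ZFP36L1 (37.9% with CP25 and 35.6% with vehicle, named after its values were seen). HNRNPD, another AU-rich element binder, was highest at 142% with CP25 and 134% with vehicle.

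The targets that MYC activates had medians of 0.09 with CP25 and 0.12 with vehicle over 34 measured genes, and 1 passed -1, the ribosome assembly factor RRS1 (46.1% left with CP25 and 45.1% with vehicle). LDHA, lactate dehydrogenase A, was highest, at 1240 ± 297 FPKM with CP25 and 1190 ± 257 FPKM with vehicle at 2 h, against 741 ± 235 FPKM with CP25 and 703 ± 184 FPKM with vehicle at 0 h (SD, n = 3), which is 167% with CP25 and 170% with vehicle. GAPDH, the glycolytic enzyme often used as a reference, stood at 118% with CP25 and 121% with vehicle.

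The targets that MYC represses had medians of -0.77 with CP25 and -0.57 with vehicle over 14 measured genes, and 4 passed -1 in each treatment. Among the genes of at least 5 FPKM at 0 h, the growth arrest gene GAS1 was lowest, with 12.7% left with CP25 and 12.8% with vehicle. The cell cycle inhibitor CDKN1B (25.4% with CP25 and 22.8% with vehicle), the stress gene GADD45B (14.8% with CP25 and 12.3% with vehicle, under 5 FPKM at 0 h) and the stress factor DDIT3 (24.4% with CP25 and 32.4% with vehicle) also passed and were named after their values were seen. NDRG1, a stress-responsive gene, was highest at 157% with CP25 and 158% with vehicle, with libraries that varied widely (38.0 ± 19.1 FPKM with CP25 and 36.2 ± 13.8 FPKM with vehicle at 2 h). These levels describe what was left of each mRNA after 2 h with actinomycin D, and an action of MYC on them was not tested.

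**Figure D5:**
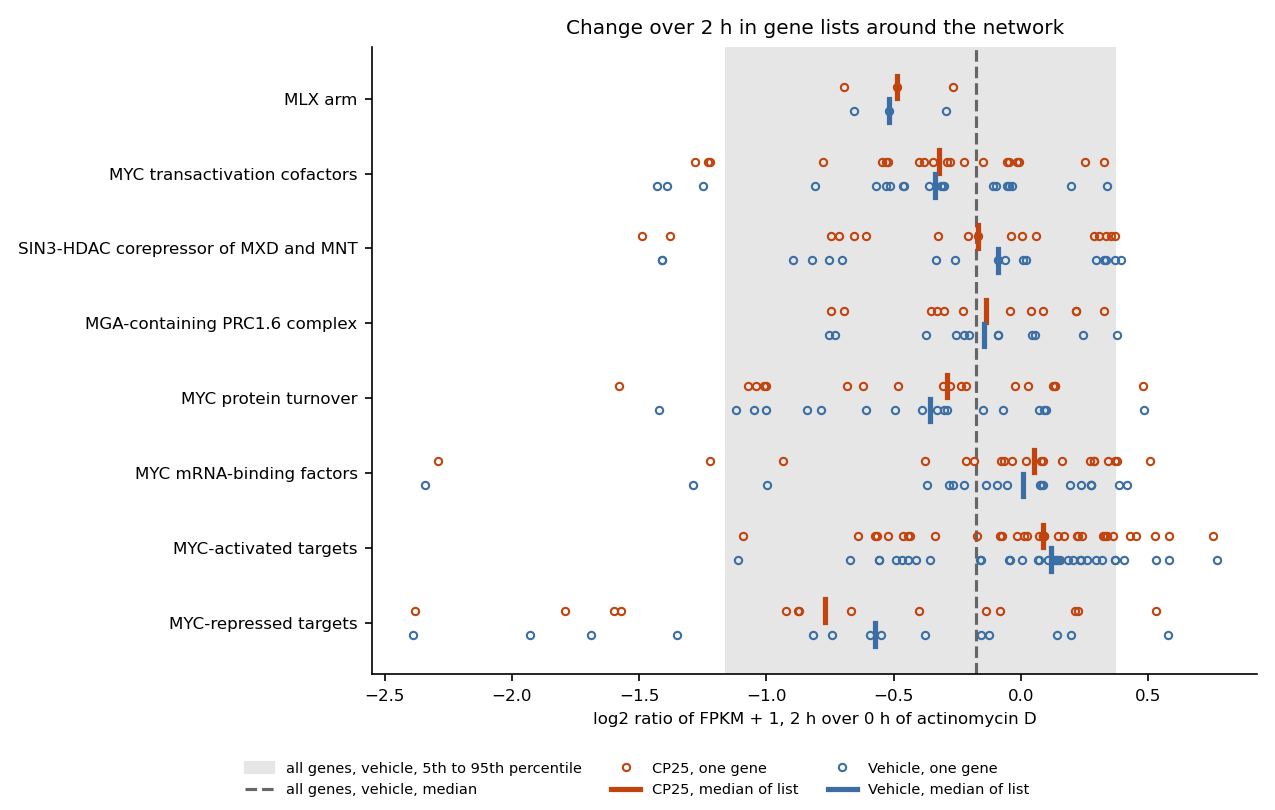
Log2 ratio of FPKM + 1 at 2 h over 0 h (horizontal axis) of every measured gene of the 8 lists, with CP25 above vehicle in each row and a bar at the median; grey marks the 5th to 95th percentile of all genes with vehicle and the dashed line their median. The medians run from -0.77 (CP25) and -0.57 (vehicle) for the targets MYC represses to 0.09 (CP25) and 0.12 (vehicle) for those it activates.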

How the data were processed

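The values analysed are FPKM per gene symbol and library, deposited by the authors in 1 table for 2 h and 1 for 0 h, with a comparison table per time holding the authors' mean FPKM and unadjusted p-value. The tools Bowtie2 2.2.3, Trimmomatic 0.36 and CASAVA 1.8.2 and the build hg19 are named per the submitters' processing notes. What program and annotation made the FPKM is not given in the sources used here. Network genes, gene lists and tests were chosen with earlier results of these data known.

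Here log2(FPKM + 1) was computed, and genes averaging 1 FPKM or more in a fit were tested with limma 3.58.1 in R 4.3.3 (moderated variance with a trend, Benjamini-Hochberg at 0.05 over all genes), within each time and as the difference of effects over 12 libraries. The ratio to MAX was adjusted over all genes in place of the 8 compared, and its alternatives are read by their unadjusted exact p. The fits were tested on simulated data. Depth was estimated from the FPKM step of 1 fragment in 2324 single-transcript genes. The network genes were all named; of each list, the lowest and highest percent left with vehicle among genes of at least 5 FPKM at 0 h; the 5 genes most like MYC; and GAPDH. Small RNA and clone names were passed over in that last search.

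CP25 and vehicle libraries of the same number were checked for pairing by the correlation, across genes, of their deviations from the group means. At 2 h it was 0.347, 0.44 and 0.147, all above 0.1, so the numbers pair the libraries there by the rule used. Of the differently numbered libraries at 2 h, CP25 replicate 1 with vehicle replicate 3 also exceeded 0.1, at 0.117, and the others lay below 0. The rule thus barely sets the match of number 3 apart from a mismatch. The pairing rests on the values, as no label says what the number means. Sequences came from GENCODE 29 (GRCh38) and RefSeq (GRCh38.p14), and the files' own build is hg19, so no position in the files was used. Alternatives were other pseudocounts, filters, scalings, a replicate term, no trend, the authors' p-values and each library left out.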

Additional observations from a re-analysis of the deposited data

How the results depend on the processing

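No network gene was called in any CP25 comparison under any alternative run. Over all genes the count of calls at 2 h, 1 in the analysis as reported, was 0 with the authors' deposited p-values adjusted here and 1 to 7 with 1 library left out (7 without CP25 replicate 2, 5 without CP25 replicate 3, 2 without replicate 1 of either treatment). At 0 h, 0 as reported, it was 1 to 4 (4 without CP25 replicate 1, and 1 or 2 without each other library), and for the difference 0 to 3 (3 without CP25 replicate 2 at 0 h). At 0 h the numbers correlated at 0.258, -0.0101 and 0.124 and so do not pair the libraries by the rule used; the replicate block made 0 calls there and changed no call of a network gene at 2 h. The number of network genes past -1 over the 2 h was 3 with no pseudocount and with a pseudocount of 0.1. The share of all genes past -1 at these pseudocounts is not given here. The cause of these shifts was not tested.

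Uncalled CP25 changes near 0 changed sign: at 0 h MXD3 was 0.0114 with libraries centred on the median, MYC -0.0121 and MAX -0.00556 with quantile normalization, and at 2 h MYCL1 was 0.00243 with quantile normalization. With 1 library left out, the change on the log2 scale at 2 h ran from -0.0028 to 0.15 for MAX, -0.082 to 0.022 for MXD1, -0.021 to 0.062 for MXD3, -0.15 to 0.029 for MXD4, -0.23 to 0.36 for MYC, -0.098 to 0.093 for MYCL1. With 1 library left out, the change on the log2 scale at 0 h ran from -0.048 to 0.033 for MAX, -0.099 to 0.021 for MGA, -0.17 to 0.041 for MXD1, -0.078 to 0.072 for MXD3, -0.011 to 0.047 for MXD4, -0.11 to 0.10 for MXI1, -0.14 to 0.12 for MYC, -0.11 to 0.12 for MYCL1. With 1 library left out, the change on the log2 scale for the difference of effects ran from -0.0072 to 0.15 for MAX, -0.11 to 0.013 for MGA, -0.10 to 0.044 for MNT, -0.067 to 0.14 for MXD1, -0.039 to 0.11 for MXD3, -0.17 to 0.011 for MXD4, -0.23 to 0.35 for MYC, -0.12 to 0.097 for MYCL1. The other left-out values kept their direction.

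Relative to MAX, no alternative turned a direction. The unadjusted exact p of MYCL1 was 0.01 at -0.60 with no pseudocount, 0.015 at -0.55 with a pseudocount of 0.1 and 0.035 at -0.27 against the median of all genes in place of MAX. Depth limits MYCN, which had about 4 fragments or fewer in a library. At 2 h the MYC interval was 3.67 times wider without the replicate number as a term than with it.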
